A study of Mus musculus with 40 samples.

Results

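Oxidative phosphorylation is carried out by 5 protein complexes of the inner mitochondrial membrane, and the genes of their subunits were followed here in CD4+ T cells of 10 body sources. Genes were taken by symbol, as Nduf subunits of complex I, Sdh subunits of complex II, Uqcr subunits of complex III, Cox4 to Cox8 subunits of complex IV and Atp5 subunits of the ATP synthase, together with the respiratory chain genes of the mitochondrial genome. Symbols of named pseudogenes (ending in -ps) and genes with no count in any library were left out. This gave 96 of the 55421 genes in the table, of which 86 lie in the nucleus and 10 on the mitochondrial chromosome. By name the nuclear genes fall into 40 of complex I, 4 of complex II, 8 of complex III, 17 of complex IV and 17 of complex V. Ndufa11b, Ndufb4c, Ndufs6b and Cox6c2 are annotated as pseudogenes and were too low to test.

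Wild-type mice carrying a Foxp3-Thy1.1 reporter were perfused, and 2000 CD4+ cells per library were sorted by the reporter. Reporter-positive cells are regulatory T cells (Treg) and reporter-negative cells are conventional T cells (Tconv). The sources were blood, spleen and lymph node (together called lymphoid here), Peyer's patch, kidney, liver, lung and pancreas, and small intestinal IEL and LPL, read here as the lymphocytes of the gut epithelium and of the lamina propria and together called gut wall. There are 3 Treg and 1 Tconv libraries from each source, all of genotype WT with no treatment other than perfusion and tissue digestion, and age and sex are not given in the sources used here.

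Electrons from NADH enter the chain at complex I and those from succinate at complex II, then pass through complex III to complex IV, where oxygen is reduced. Complexes I, III and IV pump protons, and complex V uses the resulting gradient to make ATP. Complex II is encoded wholly in the nucleus, while the other complexes combine nuclear subunits with a few that are made inside the mitochondrion. Treg are known to depend on mitochondrial respiration more than freshly activated effector T cells do, which use much glycolysis.

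Total counts per library ran from 12197980 to 28823493. Foxp3, the transcription factor that defines Treg, was at 218.8 ± 64.79 CPM (counts scaled to the library total; SD, n = 30) in Treg, range 65.93 to 305.3, and at 1.265 ± 1.886 CPM (SD, n = 10) in Tconv, highest 6.544, so the 2 cell types did not overlap in it. Several libraries stood apart. Pancreas Treg held 23210 to 125000 CPM of 11 acinar marker genes. Kidney Treg replicate 1 held 2452 CPM of tubule markers against 50.85 and 36.93 CPM in replicates 3 and 5. LPL Treg replicate 1 and IEL Treg replicate 3 held 1585 and 548.5 CPM of 12 intestinal epithelial markers, with the other gut wall Treg between 69.91 and 198.8 CPM. Lymph node Treg replicates 7 and 10, lung Treg replicates 5 and 6 and liver Treg replicate 4 carried relatively more counts on short transcripts than the other Treg libraries: the rank correlation of a gene's level, relative to its mean, with its length was −0.322 to −0.198 in them and at least −0.09 in the rest. It was also low in lung and lymph node Tconv, at −0.266 and −0.256. Nothing in the labels ties libraries to animals, so SD, SE and p-values measure the spread between these samples. In bulk RNA, fewer cells of a type and less RNA per cell cannot be told apart.

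Of the 10 mitochondrial genes, 7 gave enough counts to be tested. mt-Co2 (cytochrome c oxidase subunit II), mt-Atp6 (the membrane channel subunit of ATP synthase) and mt-Nd3 (a small membrane subunit of complex I) had 2, 7 and 12 counts summed over the 40 libraries, against 66080 for mt-Nd6 and 1506171 for mt-Co1. Their transcripts share 99.5%, 99.5% and 97.8% of all 75-base windows with other annotated genes, among them pseudogenes at mm10 chromosome 1, 24611535 to 24616197. How reads that fit several places were counted is not given in the sources used here. mt-Co1 shares 39.8% of its windows and mt-Nd4 61.5%, so their levels are uncertain too. mt-Nd5 and mt-Nd6 overlap on opposite strands, and the sources used here do not state if reads were counted by strand.

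The levels of these transcripts spanned a wide range. Per kilobase of annotated exon, which only partly fits a kit that reads transcript ends, the mean over the 40 libraries was 1262 CPM per kb for mt-Cytb (cytochrome b of complex III) and 1166 for mt-Co1 (the catalytic subunit of complex IV). Among nuclear genes, Atp5a1 and Atp5b, the alpha and the catalytic beta subunit of ATP synthase, stood at 345.4 and 312.4 CPM per kb. The genes most abundant in their complexes by CPM stood lower: Cox4i1 (a structural subunit of complex IV) reached 196.2, Sdha (the flavoprotein of complex II) 113.4 and Uqcrc1 (a core subunit of complex III) 87.14 CPM per kb. Per kb, the short Cox6a1 and Cox8a of complex IV, at 267.7 and 219.0, and Uqcr10 of complex III, at 100.7, were above them.

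Nuclear genes of the 5 complexes together took up a smaller share of all counts in the gut wall than in lymphoid Treg. The 9 lymphoid Treg libraries ran from 0.8968% to 1.403% with a mean of 1.049% ± 0.1902 (SD). IEL Treg held 0.6461%, 0.5633% and 0.7999%, and LPL Treg 0.964%, 0.629% and 0.6245%. Every IEL library and 2 of 3 LPL libraries lay below the lowest lymphoid one, and the third LPL library, the one richest in epithelial markers, lay within their range. The other sources had means of 0.8481% in Peyer's patch, 0.8677% in kidney, 0.9222% in liver, 1.113% in lung and 0.8002% in pancreas, where acinar transcripts fill part of each library. All pancreas libraries, at 0.81%, 0.7842% and 0.8064%, also lay below the lowest lymphoid one. So did some libraries of Peyer's patch, kidney, liver and lung. Lymph node Treg were split, with 1.343% and 1.403% in replicates 10 and 7 and 0.9858% in replicate 6.

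The 10 mitochondrial genes followed a like order with a larger spread. Their share of counts was 0.5719% ± 0.09441 (SD, n = 9) in lymphoid Treg, lowest 0.4753%, and 0.2898% in gut wall Treg, highest 0.3574% of 6 libraries, so these groups did not overlap. This was not particular to the gut wall. All pancreas Treg libraries, at 0.307%, 0.2859% and 0.3787%, and some of Peyer's patch, liver and kidney also lay below the lowest lymphoid one. Kidney Treg held 0.8863% in replicate 1 and 0.2124% and 0.2092% in replicates 3 and 5. The replicate with the high value is the one with the most tubule markers, and the part of those cells in it was not tested. Tconv of the gut wall stood at 0.4599% and 0.5917%, above all 6 gut wall Treg.

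**Figure D1:**
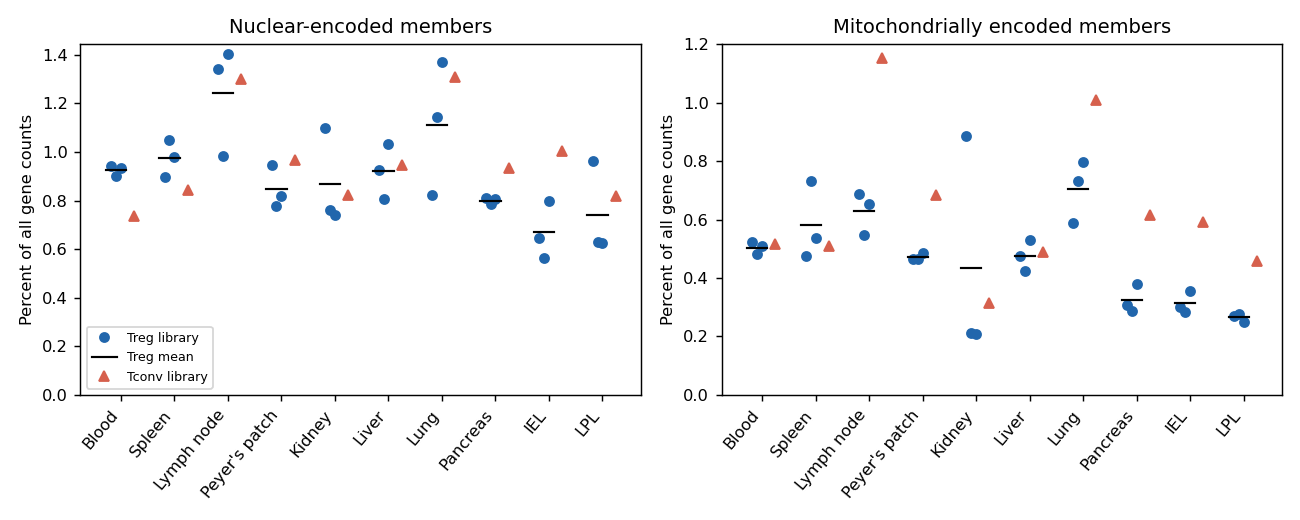
Percent of all gene counts taken by the 86 nuclear (left) and the 10 mitochondrial (right) oxidative phosphorylation genes, by source. Blue points are single Treg libraries (3 per source), black lines their means and red triangles the single Tconv library; IEL and LPL Treg lie lowest on average on the left, between 0.5633% and 0.964%, and on the right 2 kidney libraries at 0.2124% and 0.2092% lie below all LPL Treg, whose mean is 0.2651%.

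The first question was whether Treg of tissues differ from lymphoid Treg. When kidney, liver, lung, pancreas, IEL and LPL were averaged and set against blood, spleen and lymph node, 39 of 79 nuclear genes were lower and 0 higher, while 9.98% of all 17909 genes tested were called lower (edgeR's quasi-likelihood test, Benjamini-Hochberg adjusted p below 0.05). The median log2 fold change was −0.40 for nuclear members and 0.03 for all genes. By complex, 22 of 36 complex I genes, 0 of 4 of complex II (0 also at an unadjusted p under 0.05), 3 of 8 of complex III, 5 of 14 of complex IV and 9 of 17 of complex V were lower. None of the 7 mitochondrial genes was called (3 had an unadjusted p under 0.05, and DESeq2 called 0 and limma-voom 7), with a median of −0.37. The averaged comparison was carried by the gut: without IEL and LPL, 2 of its members remained called. It also depended on single libraries and on counting the libraries of a source separately. Without spleen Treg replicate 3, 25 members were called, and 0 members were when the counts of each source were summed.

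Taken one source at a time, calls were concentrated in the gut wall. In IEL Treg against lymphoid Treg, 54 of 79 nuclear genes were lower and 1 was higher, where 7.77% of all genes were called lower and 13.5% higher. The median log2 fold change was −0.92 for nuclear members, against 0.11 for all genes, and 75 of the 79 lay below 0. In LPL Treg, compared with the same 9 lymphoid libraries, 43 of 79 were lower and 1 higher, where 9.69% of all genes were lower and 17.4% higher, with medians of −0.68 and 0.07. Mitochondrial genes were lower for 3 of 7 in IEL (median −0.85) and for 7 of 7 in LPL (median −0.97). The number of members called fell to 22 without IEL Treg replicate 2 for IEL, and to 27 and 26 without LPL Treg replicates 2 and 3 for LPL. Without the 2 gut wall Treg libraries richest in epithelial markers, an alternative added after seeing the data, 53 members were called in IEL and 52 in LPL. Without the 5 Treg libraries of lymph node, lung and liver with relatively more short transcripts, also added later, 51 were called in IEL, 30 in LPL and 14 in the average of tissues.

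Genes of complexes I, III, IV and V were called in both gut compartments, with the fewest calls in complex II. In IEL Treg, 27 of 36 complex I genes, 5 of 8 of complex III, 9 of 14 of complex IV and 12 of 17 of complex V were lower, with median log2 fold changes of −0.95, −0.96, −0.99 and −0.83. Of the 4 complex II genes 1 was lower, with a median of −0.38. In LPL Treg the counts were 24, 3, 6 and 10 for complexes I, III, IV and V and 0 for complex II, where 0 genes had an unadjusted p under 0.05, DESeq2 called 0 and limma-voom 2, Sdha and Sdhc. Whether complex II differs from the others was not tested.

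**Figure D2:**
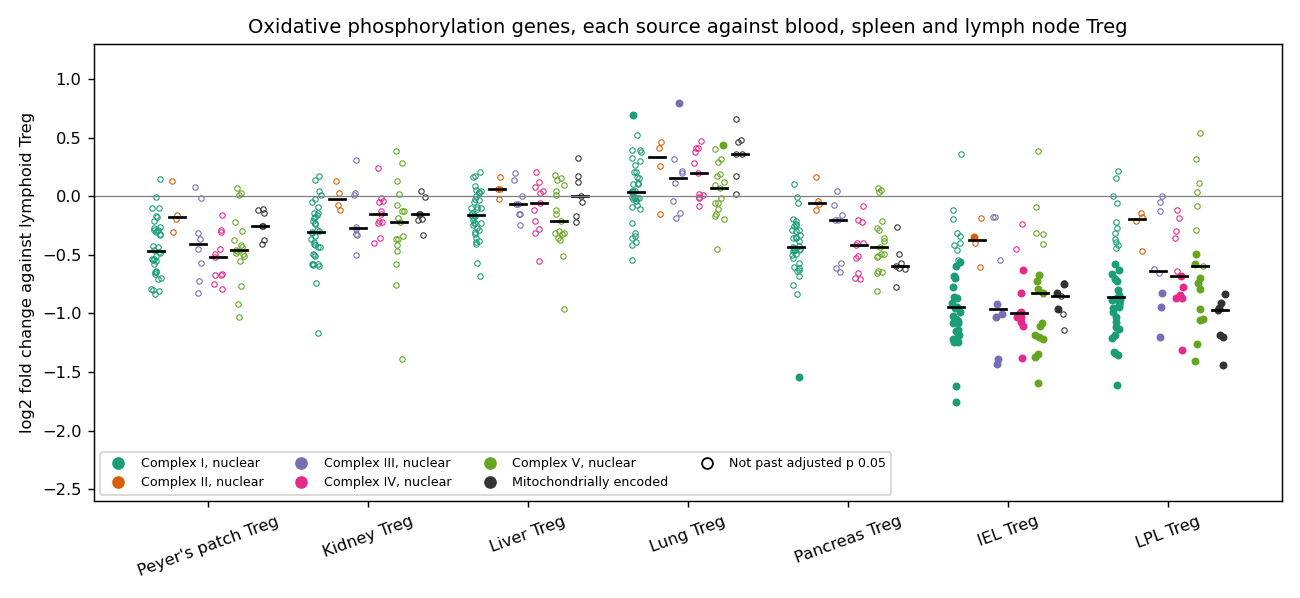
Log2 fold change of each oxidative phosphorylation gene in Treg of 7 sources against the 9 lymphoid Treg libraries (y axis), by source and complex (x axis). Each point is a gene, filled where its adjusted p is below 0.05, and black bars are medians; the low and variable Cox6a2, Cox6b2 and Cox7a1 are left out. IEL and LPL points have nuclear medians of −0.92 and −0.68, liver and lung points of −0.12 and 0.07.

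Ndufa4 (mm10 chromosome 6, 11900292 to 11907497, minus strand) encodes a small subunit first assigned to complex I and now counted with complex IV. It stood at 100.5 to 165.7 CPM in lymphoid Treg with a median of 112.6, at 39.49, 27.33 and 54.75 CPM in IEL and at 71.66, 38.71 and 37.72 CPM in LPL. All 6 gut wall libraries lay below all 9 lymphoid ones. The log2 fold change was −1.62 ± 0.25 (SE) in IEL (adjusted p = 3.74e-05) and −1.34 ± 0.24 in LPL (adjusted p = 0.00019).

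Ndufb4 (chromosome 16, 37647170 to 37654453), an accessory membrane subunit of complex I, was a low transcript. It ran from 3.948 to 7.524 CPM in lymphoid Treg, and was at 2.176, 1.271 and 1.331 CPM in IEL and 2.301, 1.835 and 1.184 CPM in LPL, again without overlap. Its fall of −1.75 ± 0.45 in IEL (adjusted p = 0.0066) was the largest among nuclear members called lower there. Ndufa7 and Ndufa11, further accessory subunits of complex I, fell by 1.23 and 1.24 in IEL and by 1.19 and 1.11 in LPL on the log2 scale.

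Of the complex II genes, Sdhb was called in IEL and none was in LPL. Sdha ran from 332.7 to 549.3 CPM in lymphoid Treg, with 386.9, 410.1 and 441.1 CPM in IEL and 449.9, 358.3 and 420.7 CPM in LPL, all inside the lymphoid range. Its change was −0.19 ± 0.12 in IEL (adjusted p = 0.273) and −0.21 ± 0.12 in LPL (adjusted p = 0.19). With the length trend taken out, the LPL change of Sdha was −0.41 and passed (adjusted p = 0.0118). Sdhb, the iron-sulphur subunit, was lower in IEL by −0.35 ± 0.12 (adjusted p = 0.0401) and at −0.14 ± 0.12 in LPL (adjusted p = 0.423). The membrane anchors Sdhc and Sdhd had values of −0.60 and −0.40 in IEL that did not pass.

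In complex III, Uqcrh, the hinge protein next to cytochrome c1, was 81.98 to 150.0 CPM in lymphoid Treg with a median of 107.7. It was 38.27, 25.45 and 58.12 CPM in IEL and 60.4, 44.13 and 39.52 CPM in LPL, below every lymphoid library. The log2 fold change was −1.44 ± 0.27 in IEL (adjusted p = 0.000452) and −1.20 ± 0.27 in LPL (adjusted p = 0.00165). Uqcr11, a small accessory subunit, fell by 1.39 in IEL (adjusted p = 0.00364) and by 0.95 in LPL (adjusted p = 0.0296), although LPL replicate 1, at 35.09 CPM, lay inside the lymphoid range of 30.13 to 44.91 CPM. Uqcrc1, a core subunit, had a change of −0.18 ± 0.16 in IEL and 0.00 ± 0.15 in LPL.

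Cox7a2l (chromosome 17, 83501918 to 83517330), which helps join complexes III and IV into supercomplexes, ran from 66.35 to 157.2 CPM in lymphoid Treg. IEL libraries held 42.91, 29.23 and 43.26 CPM and LPL libraries 40.43, 43.09 and 38.11 CPM, a narrow band below all lymphoid values. The change was −1.38 ± 0.25 in IEL (adjusted p = 0.000324) and −1.32 ± 0.25 in LPL (adjusted p = 0.000375). Cox4i1 fell by 1.10 in IEL (adjusted p = 0.0025), and its libraries at 153.2, 112.6 and 206.3 CPM lay below the lymphoid minimum of 238.2 CPM. Cox6c, Cox7a2 and Cox7c, small subunits around the catalytic core, were lower in both gut compartments, by 0.68 to 1.08 on the log2 scale. The last 300 bases of Cox7c share 70.4% of their windows with other genes and those of Atp5h below share 65.5%, while Ndufa4, Uqcrh and Atp5e share 0.0%.

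Of the ATP synthase genes, those of small and stalk subunits were among the ones called in both gut compartments, and differences between subunits were not tested. Atp5e (chromosome 2, 174461072 to 174464105), the epsilon subunit of the central stalk, was 86.37 to 132.8 CPM in lymphoid Treg. It was 35.42, 18.1 and 50.85 CPM in IEL and 48.69, 32.28 and 37.85 CPM in LPL, with no overlap and changes of −1.59 ± 0.31 (adjusted p = 0.000525) and −1.41 ± 0.30 (adjusted p = 0.00116). Atp5k and Atp5j2, small membrane subunits, and Atp5h and Atp5j of the peripheral stalk also fell in both, by 0.70 to 1.37. In the catalytic head, Atp5b was 893.3 to 1968.0 CPM in lymphoid Treg, 886.7, 906.5 and 1060.0 CPM in IEL and 1517.0, 1012.0 and 1062.0 CPM in LPL, with changes of −0.41 ± 0.17 (adjusted p = 0.0884) and −0.08 ± 0.16 (adjusted p = 0.777). Atp5a1 ran from 795.3 to 1574.0 CPM in lymphoid and from 804.2 to 1313.0 CPM in gut wall Treg, with changes of −0.32 ± 0.14 (adjusted p = 0.11) and 0.03 ± 0.14 (adjusted p = 0.913). Atp5d, the delta subunit that binds Atp5e in the stalk, was at −0.32 ± 0.14 in IEL and 0.32 ± 0.14 in LPL, neither past the threshold.

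**Figure D3:**
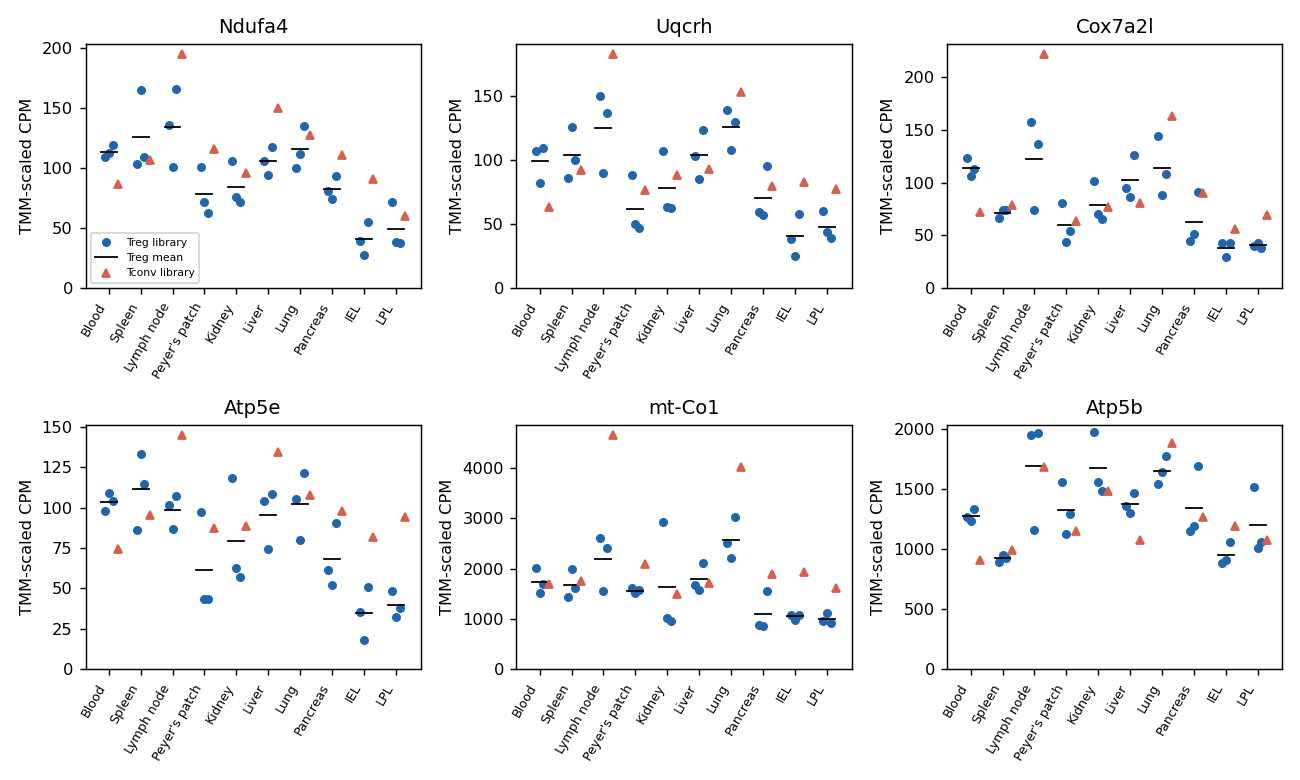
CPM scaled by library size and TMM factor (y axes, from 0) for 6 genes by source (x axes); blue points are Treg libraries, black lines their means and red triangles the single Tconv library. Ndufa4, Uqcrh, Cox7a2l and Atp5e are lowest in IEL and LPL Treg, below every blood, spleen and lymph node library, mt-Co1 lies between 924.2 and 1112.0 CPM there, and Atp5b overlaps the spleen, which runs from 893.3 CPM.

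Among mitochondrial genes, mt-Co1 (mitochondrial chromosome, 5328 to 6872) ran from 1440.0 to 2619.0 CPM in lymphoid Treg with a median of 1697.0. It was 1087.0, 987.3 and 1090.0 CPM in IEL and 961.5, 1112.0 and 924.2 CPM in LPL, below every lymphoid library. The change was −0.82 ± 0.26 in IEL (adjusted p = 0.0269) and −0.91 ± 0.26 in LPL (adjusted p = 0.0117). mt-Cytb was at −0.74 ± 0.31 in IEL (adjusted p = 0.0946) and lower in LPL by −0.96 ± 0.32 (adjusted p = 0.0257). mt-Nd1 and mt-Nd2 were lower in both, and mt-Nd4, mt-Nd5 and mt-Nd6 in LPL.

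The lymphoid reference was itself uneven for mt-Nd5, of the antisense pair. It stood at 233.9, 614.1 and 199.8 CPM in lymph node replicates 10, 6 and 7. Replicate 10 thus lay inside and replicate 7 below the gut wall values of 210.5 to 285.0 CPM. mt-Co1 went the other way in the same libraries, at 2619.0, 1566.0 and 2422.0 CPM.

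A count of genes without any overlap gives the same picture with no model. All 6 gut wall libraries lay below all 9 lymphoid libraries for 32 of 79 nuclear and 5 of 7 mitochondrial genes, where 5.08% of all genes did. For IEL alone the counts were 50 and 5 (7.15% of all genes), and for LPL alone 32 and 6 (8.11%). For 0 members were all gut wall, all IEL or all LPL libraries above all lymphoid ones, where 7.45% of all genes had the gut wall above.

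The gut wall was next compared with the 12 Treg libraries of kidney, liver, lung and pancreas. This comparison shares its 6 gut wall libraries with those above and uses no lymphoid library. Here 53 of 79 nuclear genes were lower and 0 higher, where 10.6% of all genes were lower, and the median log2 fold change was −0.60 against 0.06. All 7 mitochondrial genes tested were lower, with a median of −0.86. By complex, 24 of 36 genes of complex I, 3 of 4 of complex II, 5 of 8 of complex III, 8 of 14 of complex IV and 13 of 17 of complex V were lower.

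Ndufa4 ran from 71.84 to 134.8 CPM in these organs and was lower in the gut wall by −1.10 ± 0.17 (adjusted p = 5.74e-05); only LPL replicate 1, at 71.66 CPM, came close to their minimum. Cox7a2l, at 44.59 to 144.0 CPM there, was lower by −1.14 ± 0.18 (adjusted p = 6.76e-05), with no overlap. Sdha, at 404.4 to 586.0 CPM, overlapped and was lower by −0.28 ± 0.09 (adjusted p = 0.0216), and Atp5b was lower by −0.49 ± 0.13 (adjusted p = 0.00542). Atp5a1 was lower by −0.34 ± 0.10 (adjusted p = 0.0204). Across all members, 5 nuclear and 0 mitochondrial genes had all 6 gut wall libraries below all 12 organ libraries, where 1.56% of all genes did, and 0 the reverse, where 2.17% did. The number of members called was 35 without IEL Treg replicate 2 and 38 without the 3 lung libraries.

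Few members were called in the solid organs and Peyer's patch, although most lay below 0 in Peyer's patch (79 of 86), pancreas (78) and kidney (69). In liver 0 of 86 members were called, 0 had an unadjusted p under 0.05, and DESeq2 and limma-voom called 0, where 1.12% of all genes were called. In Peyer's patch 0 were called by edgeR, where 3.57% of all genes were (2.94% higher and 0.625% lower), but 30 had an unadjusted p under 0.05, the nuclear median was −0.45, and DESeq2 called 7 and limma-voom 48 members, all lower. In pancreas 1 nuclear gene was lower and 0 higher, where 2.31% of all genes were lower, 7.64% higher and 9.95% either. It was Ndufb4, at 1.62, 1.92 and 2.08 CPM and −1.55 ± 0.45 (adjusted p = 0.027), and it was lost without pancreas Treg replicates 1 or 5, spleen Treg replicate 4 or lymph node Treg replicate 7. In pancreas 22 members had an unadjusted p under 0.05 and in kidney 12, and limma-voom called 41 and 37 members. Pancreas and kidney had nuclear medians of −0.40 and −0.23. The shares of all genes given here are edgeR's. None is given for DESeq2, limma-voom or unadjusted p, so those counts of members have no background beside them.

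Lung had the highest nuclear median of the 7 sources, 0.07. There 3 of 79 nuclear genes were higher, where 8.64% of all genes were, and the mitochondrial median was 0.36. Uqcrfs1, the Rieske iron-sulphur protein of complex III, was 204.8, 185.8 and 205.0 CPM in lung and 76.38 to 192.5 CPM in lymphoid Treg, a change of 0.80 ± 0.21 (adjusted p = 0.0125). Ndufb8 and Atp5a1 rose by 0.70 and 0.44. Summed myeloid markers were 254.8, 1751 and 586.4 CPM in lung and 118.4 to 674.8 CPM in lymphoid Treg, so these groups overlapped. Summed lung epithelial markers did not overlap. They were 3.054, 374.5 and 389.3 CPM in lung replicates 1, 5 and 6 and at most 2.653 CPM in lymphoid Treg. The part of these cells in the lung values was not tested. The count was 1 without lung Treg replicate 6, and also without any 1 of blood Treg replicates 2, 4 or 5, spleen Treg replicates 2 or 4 or pancreas Treg replicate 1, and 9 without lung Treg replicate 1.

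When all 10 sources were compared at once, 50 of 79 nuclear and 3 of 7 mitochondrial genes varied between sources in Treg, where 34.5% of all genes did. Source means moved together. Across the 10 means, the median Spearman correlation was 0.72 over 2926 pairs of nuclear members, 0.83 between mitochondrial members and 0.67 between the genomes, against 0.01 over pairs of all genes. These values describe 10 points that share libraries, depth and the scaling, and the gut wall is at the low end of most of them.

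Shorter members had lower medians than longer ones. Split at the members' median exon length of 1587 bases, 32 of 39 shorter and 22 of 40 longer nuclear genes were lower in IEL, with medians of −1.05 and −0.64. In LPL the counts were 27 of 39 and 16 of 40, with medians of −0.89 and −0.41. Among all other genes the same split gave 9.6% and 7.0% called lower in IEL, and 11.0% and 9.1% in LPL. The medians of these other genes were −0.212 and 0.163 in IEL and −0.34 and 0.135 in LPL. Lower medians of shorter genes were thus not particular to the members. With each library's trend over length taken out as an offset, 29 shorter and 28 longer members were lower in IEL and 21 and 18 in LPL. The medians were then −0.91 and −0.78 in IEL and −0.64 and −0.48 in LPL, a smaller gap between the length classes.

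**Figure D4:**
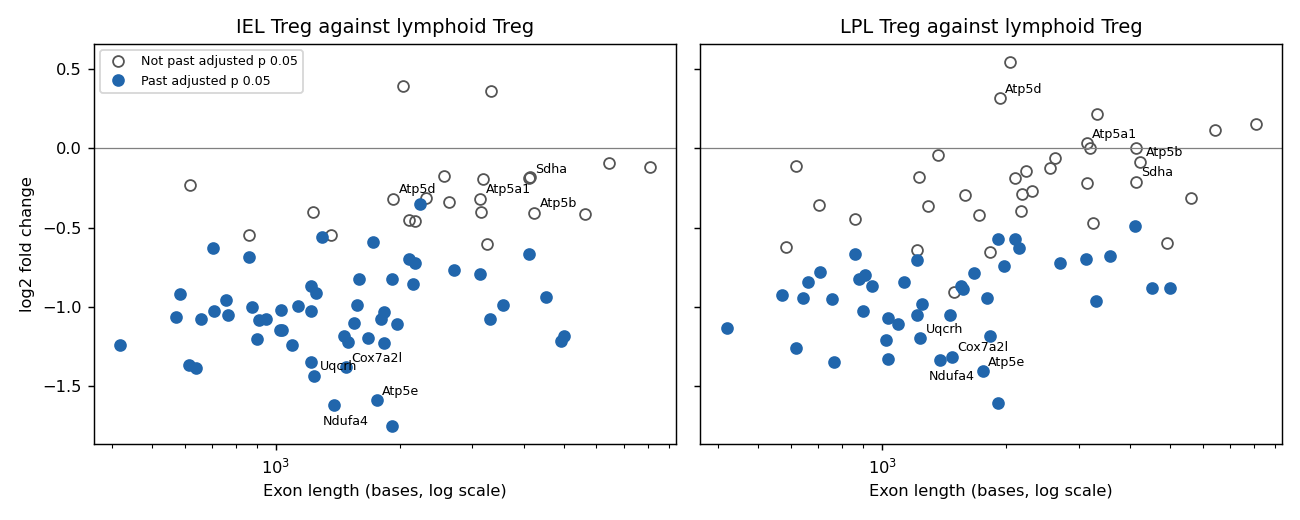
Log2 fold change of each nuclear gene (y axis) against its annotated exon length (x axis, log scale) in IEL (left) and LPL (right) Treg against lymphoid Treg, filled where the adjusted p is below 0.05; Cox6a2, Cox6b2 and Cox7a1 are left out. Of the labelled genes, Ndufa4, Uqcrh, Cox7a2l and Atp5e lie lowest, under 2000 bases, and the long Sdha, Atp5b and Atp5a1 between −0.41 and 0.03. Other long genes were called lower: of the 40 genes of 1587 bases or longer, 22 were lower in IEL and 16 in LPL.

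Promoters of these genes share short sequence motifs that are known for nuclear respiratory genes. Of the members, 65 had a promoter of 250 bases before to 50 bases after the start in RefSeq (build GRCm38.p6). On either strand, the NRF1 motif GCGCANGCG was found in 20 of them (30.8%, against 9.6% of 17492 protein-coding promoters), the ETS motif CCGGAAG in 16 (24.6% against 12.9%), the YY1 motif AAGATGGCG in 7 (10.8% against 2.1%) and the CRE motif TGACGTCA in 4 (6.2% against 2.5%). At least 1 of these was found in 38 promoters (58.5% against 23.5%). The NRF1 motif can match both strands with a shift of 1 base, which was counted once. Among the 46 genes lower in IEL that had a promoter, 32.6% held NRF1, 26.1% held ETS and 60.9% held any, near the shares of all members. YY1 was in 7 of them (15.2%) and CRE in 1 (2.2%). Whether these shares differ from those of all members was not tested.

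Stretches before the start are shown for 4 genes that were lower in both gut compartments, from complexes I, III and V, since they carry the motifs that recur across the complexes. Capitals mark the motif match, on the minus strand of chr16:37654526-37654584 for Ndufb4, chr10:80406856-80406912 for Uqcr11, chr2:174464172-174464228 for Atp5e and chr11:115420027-115420085 for Atp5h, all GRCm38.p6 from RefSeq and 5′ to 3′. Ndufb4 and Atp5h show the NRF1 motif, Uqcr11 the ETS motif and Atp5e the ETS motif on the other strand. A match describes the letters and is neither a bound site nor a cause.
Ndufb4: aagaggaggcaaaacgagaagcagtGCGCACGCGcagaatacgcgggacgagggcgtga
Atp5h: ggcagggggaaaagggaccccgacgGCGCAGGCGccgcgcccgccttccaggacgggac
Uqcr11: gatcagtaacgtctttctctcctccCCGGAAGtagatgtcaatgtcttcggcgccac
Atp5e: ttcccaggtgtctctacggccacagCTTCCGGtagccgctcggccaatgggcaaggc

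Isoforms restricted to other tissues were low in these libraries. Cox7a1, the heart and skeletal muscle isoform of a complex IV subunit, was the member higher in both gut compartments. It had 0.07134, 0.6355 and 2.751 CPM in IEL and 1.931, 0.5005 and 0.1754 CPM in LPL, with at most 0.5715 CPM in lymphoid Treg, so both compartments overlapped the lymphoid range. These are 83, 63 and 30 counts, and the fitted changes of 4.51 ± 1.33 (adjusted p = 0.018) and 4.13 ± 1.33 (adjusted p = 0.023) depend on the prior count. The muscle actin gene Acta1, the tested gene of 6 muscle markers, rose by 6.35 and 5.80 in the same comparisons, and its part in the result was not tested.

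Cox6a2, another muscle isoform of complex IV (chromosome 7, 128205435 to 128206387), was mostly a Tconv transcript in these data. It was detected in 10 of 10 Tconv libraries with 1335 counts in all, and had 0 counts in 19 of 30 Treg libraries with 221 counts in all. Tconv ran from 0.04351 CPM in blood through a median of 2.784 to 12.69 CPM in IEL and 35.18 CPM in LPL, while Treg reached at most 6.912 CPM, in kidney replicate 5. Treg were lower with a log2 fold change of −6.26 ± 0.88 (adjusted p = 2.46e-06). Muscle markers summed to at most 1.573 CPM in Tconv. LPL Tconv held 0.1702% of its counts on B cell markers, the most of the 40 libraries. Cox6a2 was the 1 member higher in kidney Treg, where 12.2% of all genes were higher and 4.25% lower, at 0, 0.9166 and 6.912 CPM (6.38 ± 1.68, adjusted p = 0.0126). That call was lost without kidney replicate 5, while leaving out kidney replicate 1 gave 20 members. Summed myeloid markers were 362.4, 1878 and 2102 CPM in kidney Treg replicates 1, 3 and 5. The part of other cells in the Cox6a2 values was not tested.

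Treg and Tconv were compared over all 40 libraries with source as an additive factor. Of 77 nuclear genes 7 were lower in Treg and 1 higher, where 7.28% of all genes were lower and 9.88% higher. The nuclear median was −0.16 and the mitochondrial one −0.31. Markers of other cells moved in both directions. Lower in Treg were 3 of 6 for CD8, gamma delta and NK cells (Klrd1 −7.26, Nkg7 −1.39 and Cd8b1 −1.05) and 2 of 3 tested for endothelium (Kdr −6.55 and Cdh5 −5.72). Of intestinal epithelial markers, Lgals4 (−2.03) and Lyz1 (−2.57) were lower and Epcam (1.65) was higher. The B cell marker Cd79b (2.67), the hepatocyte marker Trf (1.68) and the muscle marker Acta1 (2.35) were also higher. The part of such cells in the member values was not tested. Next to Cox6a2, the lower nuclear members were the complex I accessory genes Ndufa3 (−0.46), Ndufb11 (−0.39) and Ndufv3 (−0.32), Cox7a2 (−0.47), Atp5e (−0.45) and Atp5h (−0.38). Ndufv3 ran from 37.74 to 79.91 CPM in Treg and from 52.04 to 93.05 CPM in Tconv, with broad overlap (adjusted p = 0.00689). Atp5d was higher by 0.28 ± 0.08 (adjusted p = 0.0139), at medians of 291.0 and 239.8 CPM. mt-Co1 was lower by −0.46 ± 0.14 (adjusted p = 0.0194), and ran from 867.9 to 3030.0 CPM in Treg and from 1506.0 to 4664.0 CPM in Tconv. The number of members called was 15 without kidney Treg replicate 1, 14 without blood Tconv, 5 without LPL Tconv and 4 without lymph node Tconv.

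Tissue Tconv were set against lymphoid Tconv, each source giving 1 library. Of 85 members 0 were called by edgeR, where 0.0% of all genes were. An unadjusted p under 0.05 was found for 2 members, and DESeq2 and limma-voom called 2 each. The nuclear median was 0.01. In IEL and LPL Tconv, Ndufa4 stood at 90.62 and 60.19 CPM, Atp5e at 82.06 and 94.16 CPM and Cox7a2l at 55.97 and 69.05 CPM. Each of these values lay above those of Treg from the same compartment except Ndufa4 in LPL, where Treg replicate 1 had 71.66 CPM. IEL Tconv held 1687 CPM of epithelial markers, more than any gut wall Treg library.

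The difference of the effect between the cell types was tested directly. For the average of tissues, 0 of 86 members were called by edgeR, where 1.16% of all genes were, 14 had an unadjusted p under 0.05, and DESeq2 called 1 and limma-voom 2. For the gut wall alone, a contrast added after seeing the data, 1 member was lower, where also 1.16% of all genes were lower, 35 had an unadjusted p under 0.05, and DESeq2 called 4 and limma-voom 10. That member was Ndufs8, a core iron-sulphur subunit of complex I, with −1.05 ± 0.27 (adjusted p = 0.0459). It was 61.6, 60.68 and 80.35 CPM in IEL Treg, 92.33, 68.78 and 72.67 CPM in LPL Treg, and 114.1 and 100.4 CPM in IEL and LPL Tconv. The nuclear median of the difference was −0.71, against 0.01 for all genes, and most members leaned further down in Treg without passing the test singly. The Tconv side of the gut wall is 1 library per compartment, and members moved together, so the members are not separate evidence for a difference. Counts at unadjusted p and by the other methods have no share of all genes beside them.

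Other genes of the pathway give the setting for the gut wall values. Of all genes, 7.77% were lower and 13.5% higher in IEL, and 9.69% and 17.4% in LPL. Of 77 proteins of the mitochondrial ribosome, which makes the mitochondrially encoded subunits, 40 were lower in IEL and 36 in LPL, with 0 and 1 higher and medians of −0.64 and −0.52. Cytosolic ribosomal proteins went down further still, 76 and 74 of 80, with medians of −1.84 and −1.46, and took 2.865% of counts in lymphoid, 0.8066% in IEL and 0.9575% in LPL Treg. Lower levels were thus not confined to genes of respiration.

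Assembly factors were called in part. Of 16 for complex I, 1 was lower in IEL and 6 in LPL, and of 20 for complex IV 7 and 5 were lower and 2 and 1 higher, where 7.77% and 9.69% of all genes were lower and 13.5% and 17.4% higher. Of 6 for complex III, 2 were lower and 1 higher in each compartment. Uqcc2, which helps build cytochrome b into complex III, fell by 1.42 in IEL and 1.48 in LPL, and Uqcc3, with a like role, had −1.005 and −1.40. Ttc19, which acts late in complex III assembly, rose by 0.64 and 0.81. Whether assembly factors differ from subunits was not tested.

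Of 25 genes for mitochondrial DNA and RNA, 4 were lower and 1 higher in IEL, and 6 lower and 3 higher in LPL. Of all genes, 7.77% were lower and 13.5% higher in IEL, and 9.69% and 17.4% in LPL. Ssbp1, which binds single-stranded mitochondrial DNA, fell by 1.33 and 0.95, and Tfam, which packs that DNA and starts its transcription, by 0.43 and 0.49. Fastkd3, of a family of mitochondrial RNA proteins, rose by 1.36 and 1.59. Polg2, the accessory subunit of the mitochondrial DNA polymerase, and Tbrg4, of the same family as Fastkd3, rose by 1.72 and 1.68 in LPL. Of 11 regulators of mitochondrial biogenesis, 2 were lower in IEL, Myc (−1.14) and Pprc1 (−1.14). In LPL Myc was lower (−0.84), while Gabpb1, a partner of an ETS factor, and Yy1 were higher (1.004 and 0.71).

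Enzymes of the citric acid cycle, which feeds electrons to the chain, were mostly not called, with 3 of 17 lower and 1 higher in IEL and 1 lower in LPL, the last a smaller share than the 9.69% of all genes. Of 15 glycolysis genes, 3 rose and 1 fell in IEL, and 7 rose and 1 fell in LPL. Of all genes, 13.5% rose and 7.77% fell in IEL, and 17.4% and 9.69% in LPL. Among them, the glucose transporter gene Slc2a3 rose by 0.92 and 1.09 and Pfkp, for platelet phosphofructokinase, by 0.71 and 0.73. Eno1, for an enolase, fell by 0.61 and 0.73.

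Markers of other cells moved with the gut wall comparisons, where 13.5% of all genes rose and 7.77% fell in IEL, and 17.4% and 9.69% in LPL. All 10 tested epithelial markers rose in IEL and in LPL, and 0 of the 12 listed were at 0 counts in either. Of 6 markers of CD8, gamma delta and NK cells, Cd8a and Nkg7 rose in IEL, by 6.33 and 3.08. In LPL they rose by 4.11 and 1.75, while Cd8b1 and Trdc fell by 1.54 and 1.64. Of 7 Treg genes, 2 rose and 1 fell in IEL and 4 rose and 1 fell in LPL, with Ctla4 rising by 2.85 and 3.26 and Il2ra falling by 1.67 and 0.91. The part of these cells in the lower subunit levels was not tested beyond the removal of the 2 libraries above.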

How the data were processed

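Raw gene counts of 40 libraries were deposited by the authors as 1 table of 55421 genes. Per the submitters' processing notes, the tools were FastQC, Trim Galore, STAR, featureCounts, MultiQC, DESeq2 and DESeq and the build mm10, with no version given. Libraries were made with the QuantSeq 3′ mRNA kit, per the labels' protocols, so counts come from transcript ends. Groups follow the labels. Symbols came from GENCODE M21, which matched 54587 identifiers with their version and gave 55154 a symbol, and promoters from RefSeq.

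The tests on these counts used edgeR 4.0.16 under R 4.3.3 (filterByExpr, TMM scaling, robust quasi-likelihood F test), fitted on the whole table and adjusted by Benjamini-Hochberg over all genes tested, with a threshold of 0.05. The 30 Treg libraries were fitted with a mean per source and contrasts of unweighted source means; Treg and Tconv were compared over 40 libraries with source as a factor. Levels are CPM with the library total scaled by TMM, shares are percent of all counts. Scripts were tested on simulated data. Alternatives were DESeq2 1.42.0 and its size factors, limma 3.58.1 voom with quality weights, no filter, a length offset, single reference sources, summed sources, a replicate block and leaving out each library; counts at unadjusted p are given where few genes were called. Shares of all genes called are those of the main edgeR fits, and none is given beside counts by these alternatives or at unadjusted p. Figures used matplotlib 3.10.9.

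A symbol with several gene IDs in a list was counted once, by the ID with the most counts. Members, gene lists and tests were chosen with earlier results of these data known. Named genes are all mitochondrial and complex II members, those with the smallest p per complex in tissue against lymphoid Treg (4) and Treg against Tconv (2), the most abundant of each complex, up to 2 per direction in each source, restricted isoforms and up to 3 of a pathway list. A gene named by this rule is not reported here. Ndufb8, Ndufs8, Ndufa3, Cox6a1, Cox8a, Uqcr10, Uqcc2, Tfam, Ssbp1, Polg2, Slc2a3, Acta1, Cd8a and Trdc, where outside that rule, were named after their values were seen. Of the 96 members, 86 passed the filter on low counts in Treg. Those not tested were Cox4i2, Cox6c2, Cox8b, Ndufa11b, Ndufa4l2, Ndufb4c, Ndufs6b, mt-Atp6, mt-Co2 and mt-Nd3.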

Additional observations from a re-analysis of the deposited data

Results flagged for a closer look

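Single libraries stood far from the rest of their group for 15 of 126 groups of values examined. Chance gives about 1 in 20 for independent, normally distributed values. These genes share libraries and moved together, so the count cannot be set against that rate. In lymphoid Treg, spleen replicate 3 was highest for Atp5k at 48.1 CPM (others 18.46 to 30.71), for Uqcrb at 86.0 CPM (others 39.79 to 62.91) and for mt-Nd4 at 469.7 CPM (others 238.3 to 355.4). Cox6a2 reached 0.5715 CPM in lymph node replicate 7 and Cox6b2 1.291 CPM in spleen replicate 4. In gut wall Treg, LPL replicate 1 held the highest Atp5a1 at 1313.0 CPM (others 804.2 to 992.4) and Atp5b at 1517.0 CPM (others 886.7 to 1062.0), IEL replicate 2 the lowest Cox7a2l at 29.23 CPM (others 38.11 to 43.26) and IEL replicate 3 the highest mt-Nd5 at 285.0 CPM (others 210.5 to 237.5). In Tconv, lymph node replicate 8 was highest for Ndufb11 at 162.6 CPM, Ndufb4 at 9.564 CPM, Sdhb at 231.7 CPM and Uqcr10 at 92.87 CPM, liver replicate 2 for Atp5k at 28.14 CPM and LPL replicate 3 for Cox6a2 at 35.18 CPM.

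Tests of differences between groups also gave calls. Gut wall and solid organ Treg differed in 60 of 86 members, all lower in the gut wall, by a contrast of the source means, where 23.6% of all genes differed and 10.6% were lower. The gut wall effect differed between Treg and Tconv for 1 of 86 members, Ndufs8, by an interaction contrast, a share near the 1.16% of all genes lower in that contrast.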

How the results depend on the processing

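Counts below are members called in either direction. IEL (58) gave 30 with blood and 35 with spleen as the reference, 20 with a replicate block and 24 with block and length offset. LPL (51) gave 22, 29, 16 and 16 in the same order, and 30 without the 5 Treg libraries relatively richest in short transcripts, and also with liver replicate 4, the fifth of them, kept (here the set of 4). Gut wall against solid organs (60) gave 19 with the block and 29 with block and offset, and 38 without lung. The average of tissues (39) gave 4 with blood, 11 with spleen, 8 with the block, 8 with block and offset, 0 with summed sources, 59 by limma-voom, 2 without IEL and LPL, 14 without the 5 libraries and 15 without the set of 4. Variation between sources (53) gave 82 by limma-voom, 30 with the block, 27 without the 5 and 33 without the 4. Kidney (1) gave 2 by DESeq2, 37 by limma-voom, 0 with blood, 2 with lymph node, 2 with block and offset, 2 without IEL replicate 3 and LPL replicate 1 and 2 without the 4 or the 5 libraries. Lung (3) gave 1 by limma-voom, 0 with lymph node, 6 with spleen, 6 with block and offset and 1 without the 4 or the 5 libraries. Pancreas (1) gave 4 by DESeq2, 3 with the offset, 41 by limma-voom, 5 with lymph node, and 0 with no filter, blood, spleen, the block, block and offset, or without the 4 or the 5 libraries. Peyer's patch (0) gave 1 with DESeq2 size factors, 7 by DESeq2, 2 with the offset, 48 by limma-voom, 3 with lymph node and 2 without IEL replicate 3 and LPL replicate 1. Treg against Tconv (9) gave 20 by limma-voom, the gut wall difference between them (1) 4 by DESeq2 and 10 by limma-voom, the tissue difference (0) 1 by DESeq2, 1 with the offset and 2 by limma-voom, and Tconv of tissues (0) 2 by DESeq2 and 2 by limma-voom. The cause of these changes was not tested.

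Leaving out 1 library gave 22 to 63 for IEL, 26 to 55 for LPL, 35 to 71 for gut wall against solid organs, 25 to 52 for the average of tissues, 41 to 67 for variation, 0 to 20 for kidney, 0 to 0 for liver, 1 to 9 for lung, 0 to 7 for pancreas, 0 to 6 for Peyer's patch, 4 to 15 for Treg against Tconv and 0 to 0 for Tconv of tissues, and a mean nuclear share in IEL of 0.6047% to 0.723%. Pancreas gave 7 without kidney replicate 1 and 5 without lymph node replicate 6, and Peyer's patch 6 without its replicate 1. Of the changes of single named genes, 0 called ones reversed. With 1 library left out 178 lost and 96 gained a call, and 371 and 111 under other settings. Libraries with the same replicate number were no more alike by 1 measure: the median correlation of deviations was −0.02 over 58 pairs of libraries with the same number and 0.00 over 347 with different ones. This measure cannot show which libraries share an animal. Leaving out libraries was not run for the differences between cell types, and the replicate block could not be fitted for them. The median of all genes lay 0.11 above 0 in IEL, and in lung at −0.12 without the 4 and −0.10 without the 5 libraries. Against solid organs it lay at 0.13 without the 5.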
